A study of Mus musculus with 96 samples.

Results

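Otx2 and the other genes described here, Pou3f1, Fgf5, Fgf15, Sox3, Zic2, Zic5 and Sall2, mark formative pluripotency, the state between the naive embryonic stem cell and the primed epiblast. They were picked by name, 8 of the 37620 gene rows of each count table. The choice was made with changes of these genes in these tables in view, and which table drove it is not recorded, so no comparison is independent of it and the changes below are descriptions. The study asked how RYBP and the Trithorax subunit WDR5 act in mouse embryonic stem cells (ESCs), grown in serum and LIF. RNA-seq gave 7 tables of gene counts, each with a control and a perturbed group of 2 libraries, and chromatin immunoprecipitation sequencing (ChIP-seq) gave 14 peak lists.

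In R7.15 ESCs, a Rybp-floxed line, Rybp+/+ cells were compared with Rybp-/- cells, made with 5 µM 4-hydroxytamoxifen (4-OHT) over 4 days. Only the Rybp-/- cells received 4-OHT, so the drug and the deletion cannot be told apart. In R1 ESCs, an empty short hairpin vector (shEV) was compared with a hairpin against Rybp (shRybp) and with one against Wdr5 (shWdr5). Another R1 pair set WT ESC against TF-AA mutation, a mutant whose mutated protein the labels do not name. In R7.15 cells of the genotype RYBPfl/fl Rosa26::CreERT2, all treated with 4-OHT, cells with WT RYBP overexpression (WT.RYBP) were compared with cells carrying a RYBP.21aa deletion (RYBP phase disruption), so both groups share the floxed background and the 4-OHT treatment. In J1 cells labelled Tet on.RYBP, vehicle was set against doxycycline (DOX). In a line named rTRS, labelled as a DOX-induced Rybp_Stat3 integration, the control (NTC) was set against DOX. Among the ChIP-seq groups, shStat3 is an R1 line with Stat3 knocked down, set beside shEV, and Tet.Rybp.Stat3 is an R1 line with the DOX-induced Rybp_Stat3 integration, without DOX (DOX-) or with it (DOX+). The other lists are of Rybp+/+ and Rybp-/- cells. The labels do not say whether the 2 libraries of a group came from separate cultures, so the tests measure the spread between these libraries, which may be technical, and each line is a single model.

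During the exit from naive pluripotency, OTX2 works with OCT4 (Pou5f1) at enhancers that become active in formative cells. Fgf5 is the classical marker of the early epiblast, and Zic2, Zic5, Sox3 and Pou3f1 encode transcription factors of the epiblast and of the neural tissue formed from it. RYBP is a subunit of variant Polycomb repressive complexes that carry the ubiquitin ligase RING1B, WDR5 belongs to the MLL complexes that methylate histone H3 at lysine 4, and STAT3 carries the LIF signal that holds ESCs in the naive state. H3K27ac marks active promoters and enhancers, and H3K4me3 marks promoters.

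On build NCBIM37 (mm9), Otx2 lies at chr14:49277354-49287319 on the minus strand, Zic5 at chr14:122856017-122864899 (minus) and Zic2 at chr14:122874604-122879074 (plus), 9705 bp apart and pointing away from each other. Sall2 lies at chr14:52930847-52948437 (minus), Sox3 at chrX:58144545-58146605 (minus), Pou3f1 at chr4:124334896-124337899 (plus), Fgf5 at chr5:98683203-98706049 (plus) and Fgf15 at chr7:152082437-152086858 (plus). A second gene model, also named Pou3f1 and annotated as a pseudogene, covers chr4:124334889-124337899 on the same strand, and a counter that drops reads shared by 2 genes would leave almost none to Pou3f1. Its counts were 0 to 31 in every library, so its level is uncertain. The antisense lincRNA Gm17685 overlaps the start of Fgf15, and whether strand was used in counting is not given in the sources used here, so Fgf15 reads may include some of it.

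The sequences below are the 250 bases before the annotated start of 4 genes with large changes, and a stretch past the 3′ end of Otx2 that holds a WDR5 peak, read from mm9, 5′ to 3′ on each gene's strand, with each CG dinucleotide in capitals. CG-rich starts are the usual landing sites of Polycomb complexes, and the starts shown range from few such pairs at Otx2 to many at Zic2.
Otx2 upstream, chr14:49287320-49287569: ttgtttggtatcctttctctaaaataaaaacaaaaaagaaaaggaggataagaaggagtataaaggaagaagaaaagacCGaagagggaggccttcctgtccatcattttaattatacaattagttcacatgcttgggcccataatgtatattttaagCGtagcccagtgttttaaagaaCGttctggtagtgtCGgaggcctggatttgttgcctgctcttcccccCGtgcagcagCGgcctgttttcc
Zic2 upstream, chr14:122874354-122874603: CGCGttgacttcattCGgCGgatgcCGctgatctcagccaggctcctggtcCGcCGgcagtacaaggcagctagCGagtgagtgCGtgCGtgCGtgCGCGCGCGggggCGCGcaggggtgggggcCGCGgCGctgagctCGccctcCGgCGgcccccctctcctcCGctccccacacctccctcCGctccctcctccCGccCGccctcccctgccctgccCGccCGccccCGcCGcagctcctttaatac
Fgf5 upstream, chr5:98682953-98683202: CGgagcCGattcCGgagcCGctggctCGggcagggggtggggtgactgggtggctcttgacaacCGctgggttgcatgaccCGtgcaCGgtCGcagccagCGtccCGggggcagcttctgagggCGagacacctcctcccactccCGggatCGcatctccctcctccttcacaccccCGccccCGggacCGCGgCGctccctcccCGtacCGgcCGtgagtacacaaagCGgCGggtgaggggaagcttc
Fgf15 upstream, chr7:152082187-152082436: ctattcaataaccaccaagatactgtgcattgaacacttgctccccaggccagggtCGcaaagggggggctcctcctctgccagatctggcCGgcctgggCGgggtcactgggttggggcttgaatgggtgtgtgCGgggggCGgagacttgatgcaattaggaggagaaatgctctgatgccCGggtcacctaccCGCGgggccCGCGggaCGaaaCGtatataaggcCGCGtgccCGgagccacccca
Otx2 downstream, chr14:49274709-49274968: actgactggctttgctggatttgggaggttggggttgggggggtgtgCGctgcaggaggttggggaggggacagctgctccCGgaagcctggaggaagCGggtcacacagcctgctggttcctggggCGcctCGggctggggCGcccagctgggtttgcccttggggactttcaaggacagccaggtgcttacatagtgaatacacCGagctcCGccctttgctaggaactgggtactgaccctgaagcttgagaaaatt
The Otx2 window held 6 CG pairs, Fgf15 15, Fgf5 24 and Zic2 31, and the windows not printed held 33 at Pou3f1, 16 at Sox3, 11 at Zic5 and 3 at Sall2. Over the same window of 22362 protein-coding genes the median was 8, with quartiles of 3 and 18. The start of Otx2 thus sat at the 42.3 percentile and that of Zic2 at the 94.5 percentile of CG pairs. Searched on both strands, the STAT motif TTCNNNGAA, the OTX motif TAATCC and the octamer ATGCAAAT of POU factors were in none of the 8 windows, and in 6.83%, 6.46% and 1.62% of all windows. These letters were also absent from the Otx2 downstream stretch, which spans a WDR5 peak. The middle 260 bp of WDR5 peaks in Rybp+/+ ESCs held them in 3.82%, 2.79% and 0.66% of cases.

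Each library held 14512857 to 81049618 counts on genes. The expression values are CPM, the count of a gene scaled to a normalised library size. A gene is called when its p, from the quasi-likelihood test of edgeR and adjusted by Benjamini-Hochberg across all genes of that table that were tested, is under 0.05, and changes are log2 fold changes ± the standard error, perturbed over control. That standard error was taken as the absolute change divided by the square root of the F statistic of the test. The targeted genes were checked first. Rybp was at 110 CPM in both Rybp+/+ libraries and at 24.8 and 25.0 CPM in the Rybp-/- libraries, fell from 85.7 and 86.4 to 35.8 and 36.6 CPM with shRybp, and rose from 135 and 145 to 522 and 535 CPM in the Tet.RYBP.DOX libraries. Wdr5 fell from 346 ± 4.9 to 59.1 ± 1.3 CPM (SD, n = 2) with shWdr5. Rybp was at 749 and 753 CPM in WT.RYBP and at 662 and 626 CPM in RYBP phase disruption. In the rTRS line Rybp did not follow the label and Stat3 was only slightly higher, with Rybp at 113 and 111 CPM without DOX and 102 and 99.8 CPM in the libraries labelled DOX, a change of −0.15 ± 0.07 that was not called, and Stat3 at 159 and 172 CPM against 191 and 188 CPM, a change of 0.20 ± 0.06 that was called. Markers of ESCs summed to 1597 to 5817 CPM in every group, so markers of the labelled cell type were present throughout.

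**Figure D1:**
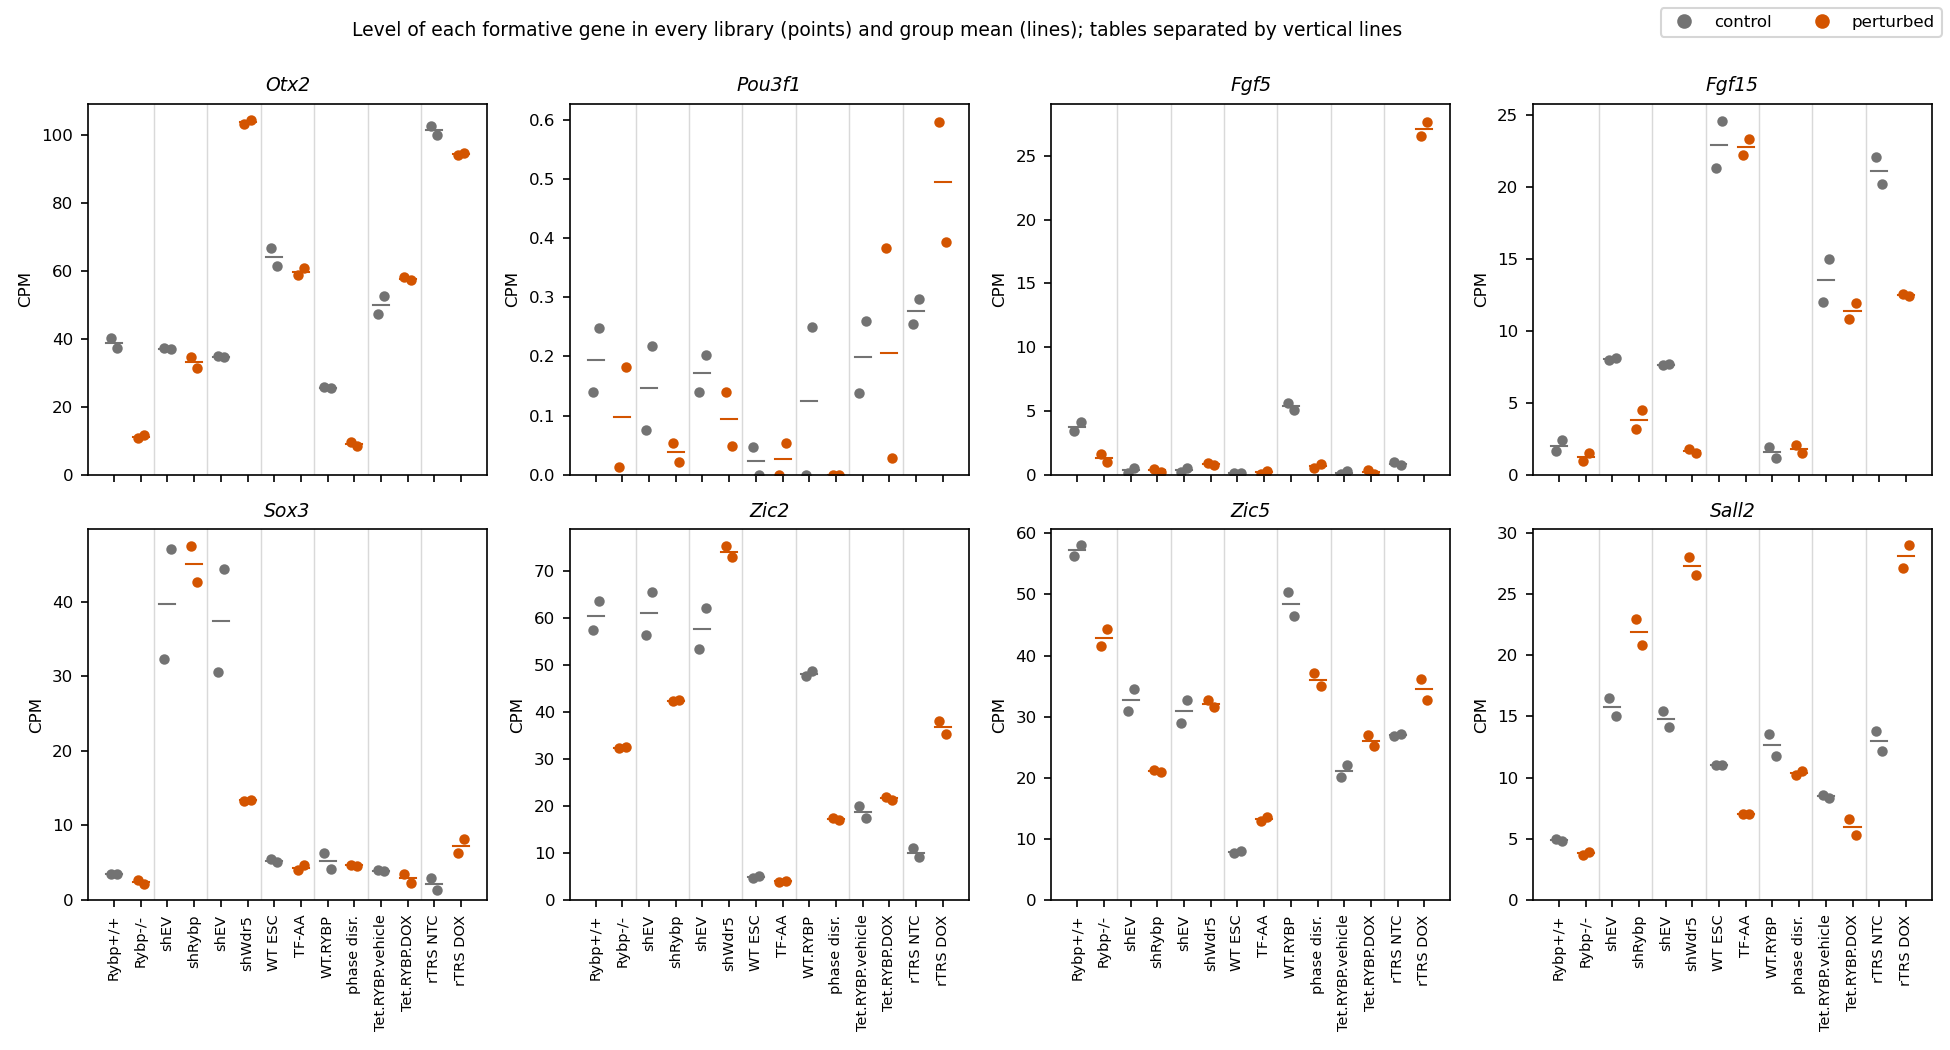
CPM of each formative gene (vertical axis, one panel per gene) in every library (points) of the 14 groups of the 7 tables, with group means as lines, controls in grey and perturbed groups in orange. Otx2 sat between 8.34 and 104 CPM, lowest in RYBP phase disruption and highest with shWdr5, and Fgf5 was above 5.66 CPM only in the libraries labelled rTRS DOX.

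Of the genes called lower without Rybp, Otx2, Fgf5 and Zic2 changed the most. In the Rybp-/- libraries 7 of the 8 genes were called lower and Pou3f1 was not called, and in the same comparison 45.5% of all genes tested were called, 22.7% of all tested being lower. Because the genes may have been picked on this table, the count is given beside that share without a reading. In bulk RNA, fewer cells of a type and less RNA per cell cannot be told apart.

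Otx2 was at 40.3 and 37.3 CPM in Rybp+/+ ESCs and at 10.8 and 11.6 CPM in Rybp-/- ESCs. The groups were far apart, a change of −1.79 ± 0.07 that left 0.289 of the control level, and 0.366% of genes tested had a lower log2 fold change. Zic2, a zinc finger transcription factor, was at 57.4 and 63.6 CPM against 32.3 and 32.6 CPM, a change of −0.90 ± 0.05. Its neighbour Zic5 was at 56.3 and 58.1 CPM against 41.5 and 44.3 CPM, a smaller change of −0.42 ± 0.05. Neither gene's groups overlapped.

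Fgf5, the secreted growth factor of the epiblast, was at 3.41 and 4.14 CPM in Rybp+/+ and at 1.60 and 0.974 CPM in Rybp-/-, a change of −1.55 ± 0.21. Both Rybp-/- libraries were below both controls. Fgf15, an endocrine growth factor of the same family, was at 1.63 and 2.44 CPM against 0.946 and 1.53 CPM, with groups that came close to each other and a change of −0.71 ± 0.26. Sox3, a relative of Sox2, was at 3.50 and 3.47 CPM against 2.67 and 2.21 CPM (−0.51 ± 0.17), and Sall2, a zinc finger gene of the spalt family, was at 4.96 and 4.86 CPM against 3.71 and 3.94 CPM (−0.36 ± 0.14). These 3 low genes were called on a narrow margin. Without Rybp+/+ replicate 2 or Rybp-/- replicate 1 the change of Fgf15 was −0.40 or −0.41 and not called, without Rybp-/- replicate 2 that of Sox3 was −0.39 and not called, and Sall2 was not called without any one library (−0.32 to −0.41). DESeq2 called none of these 3, at changes of −0.72, −0.52 and −0.36. Pou3f1 had 11 and 20 counts in Rybp+/+ and 1 and 14 counts in Rybp-/-, overlapping groups with a change of −0.98 ± 0.82 that was not called. It was −0.095 without Rybp-/- replicate 1 and −3.73 without Rybp-/- replicate 2, and not called in either case.

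The other formative genes, a list of 12, moved partly the same way. Of these, 7 were lower, 2 higher and 3 not called in Rybp-/- ESCs, with a median change of −0.26 beside a median of 0.00 over all genes tested. Lef1, a nuclear effector of WNT signalling, was at 31.4 ± 1.8 CPM (SD, n = 2) in Rybp+/+ and 9.31 ± 1.0 CPM in Rybp-/-, a change of −1.75 ± 0.08. The kinase gene Pim2 changed by −0.80 ± 0.05, and the genes of the DNA methyltransferases Dnmt3a and Dnmt3b by −0.73 ± 0.04 and −0.64 ± 0.03. Of 12 naive genes, 7 were higher, 2 lower and 3 not called, with a median of 0.17. Tbx3 rose by 0.77 ± 0.03, Tfcp2l1 by 0.56 ± 0.03, Nanog by 0.48 ± 0.03 and Klf4 by 0.42 ± 0.03. Of 16 paralogs of the formative genes in the annotation, 12 were tested and 5 were lower, by at most 0.37 (Fgf17) among those with a mean CPM of 1 or more. Markers of fibroblast feeder cells were also higher, 6 of 6, with a sum of 56.4 to 57.2 CPM in Rybp+/+ and 114 to 119.9 CPM in Rybp-/-. None of the 6 was at 0 counts in that table, and the part of such cells in the changes above was not tested.

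**Figure D2:**
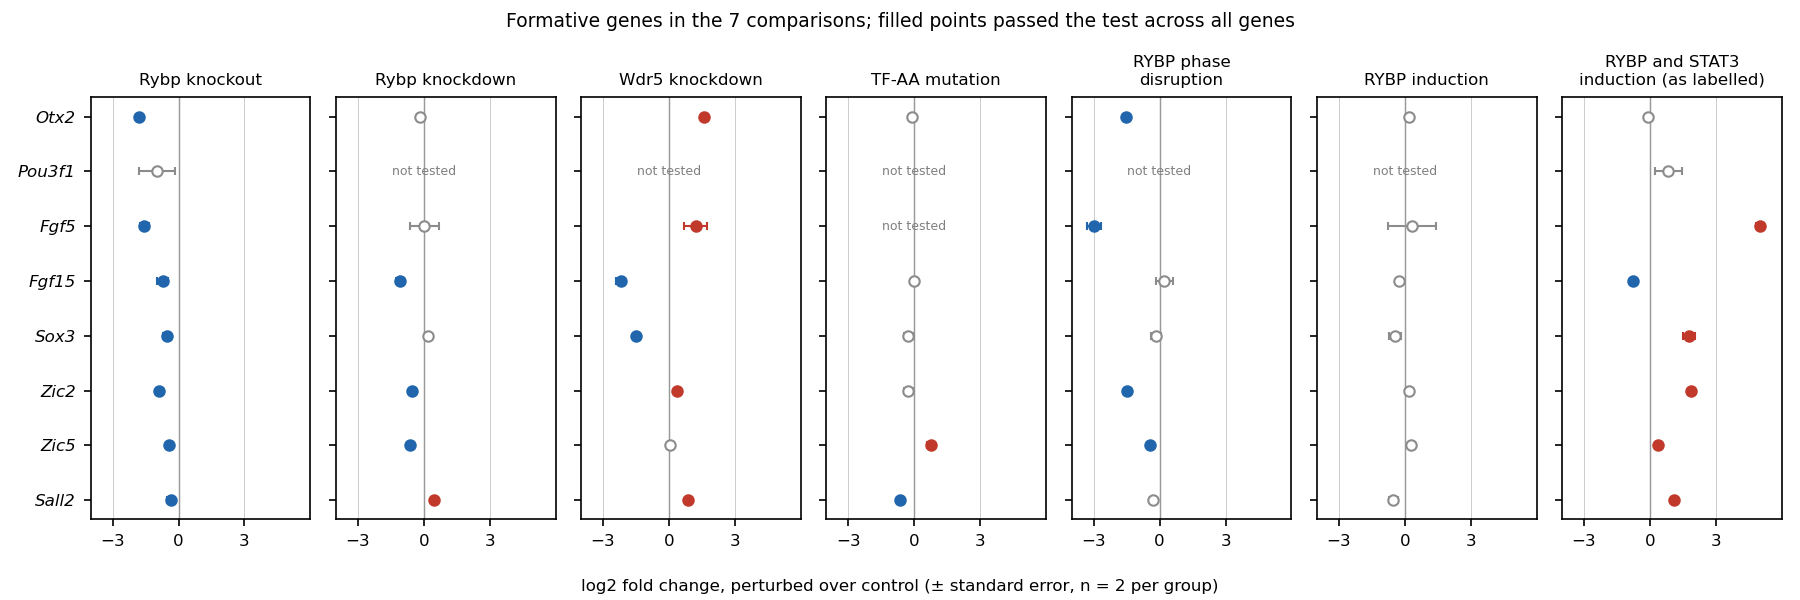
Log2 fold change of each formative gene (horizontal axis, perturbed over control, with standard errors, 2 libraries per group) in the 7 comparisons. Filled points were called, blue lower and red higher. Otx2 was lower at −1.79 in the Rybp knockout and −1.52 in RYBP phase disruption, higher at 1.58 in the Wdr5 knockdown and not called elsewhere.

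Knockdown of Rybp in R1 ESCs lowered the Zic pair and Fgf15, raised Sall2 and did not move Otx2 past the test. Of the 7 genes tested, 3 were lower, 1 higher and 3 not called, in a table where 52.7% of genes were called, 26% of all tested being lower and 26.8% higher. Pou3f1 had too few reads to be tested in the table.

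Otx2 was at 37.2 and 37.0 CPM with shEV and at 34.7 and 31.4 CPM with shRybp, both libraries a little below the controls, a change of −0.17 ± 0.07 (adjusted p = 0.07, edgeR quasi-likelihood test, Benjamini-Hochberg). Without shRybp replicate 1 the change was −0.24 and was called. Zic2 was at 56.5 and 65.5 CPM against 42.3 and 42.5 CPM, a change of −0.52 ± 0.07, and Zic5 was at 30.8 and 34.6 CPM against 21.2 and 20.9 CPM, a change of −0.63 ± 0.08. For both neighbours the groups were apart. Fgf15 was at 8.01 and 8.16 CPM against 3.17 and 4.50 CPM, a change of −1.08 ± 0.18 that left 0.472 of the control level.

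Sall2 was the one gene called higher, at 16.5 and 15.0 CPM with shEV and 22.9 and 20.9 CPM with shRybp, a change of 0.47 ± 0.09. Sox3 was unstable, at 32.4 and 47.0 CPM in the controls, which spanned most of the values of 47.4 and 42.6 CPM with shRybp (0.18 ± 0.11, not called). It was called with the replicate number as a block in the fit (0.20) and without a filter on low counts (0.18). Without shEV replicate 1 its change was −0.07, and without shEV replicate 2 it was 0.47 and called. Fgf5 had 7 and 19 counts with shEV and 26 and 10 with shRybp, too few to show a difference (0.03 ± 0.67). Of the other formative genes 4 were higher and 7 lower, led by the tight junction gene Cldn6 at 1.80 ± 0.08, with Foxd3 at −0.93 ± 0.07 and Utf1 at −0.83 ± 0.05, and of the 12 naive genes 4 were higher and 5 lower. Their medians were −0.26 and −0.13. Feeder markers moved here too, 3 of 3 tested being higher, from a sum of 18.6 to 18.8 CPM to one of 30.7 to 31.9 CPM, with Dcn at 0 counts. Among early neural markers Nes was higher, at 14.8 ± 0.78 CPM with shEV and 43.3 ± 2.8 CPM with shRybp (SD, n = 2, 1.55 ± 0.08), and Pax6 lower, at 5.81 ± 0.21 and 3.03 ± 0.67 CPM (−0.95 ± 0.19). Of 5 ESC markers 3 were lower and 1 higher, from a sum of 5496 to 5817 CPM to one of 4321 to 4376 CPM. The part of any of these cell types was not tested.

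Knockdown of Wdr5 raised Otx2, Zic2, Sall2 and Fgf5 and lowered Fgf15 and Sox3. Of 7 genes tested, 4 were higher, 2 lower and 1 not called, in a table where 63% of genes were called, 31.5% of all tested being higher and 31.5% lower. The shEV libraries are those of the Rybp knockdown at about 50.9% and 50.6% of the depth, so the values of the knockdowns share their controls and are given side by side only.

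Otx2 was at 34.9 and 34.6 CPM with shEV and at 103 and 104 CPM with shWdr5, a change of 1.58 ± 0.06, or 2.98 times the control level. Sall2 was at 15.5 and 14.1 CPM against 28.0 and 26.5 CPM (0.88 ± 0.09), and Zic2 was at 53.4 and 62.1 CPM against 75.3 and 72.9 CPM (0.36 ± 0.07). The groups did not overlap for these 3 genes. Zic5, next to Zic2, was at 29.0 and 32.7 CPM against 32.7 and 31.6 CPM, groups that overlapped (0.06 ± 0.08, not called). Fgf5 was at 4 and 11 counts against 20 and 16 counts, a change of 1.21 ± 0.52 called on a narrow margin. It was not called without shEV replicate 1 (0.61), shWdr5 replicate 1 (1.06) or shWdr5 replicate 2 (1.34), nor by DESeq2 (1.21), and was 2.15 and called without shEV replicate 2.

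Fgf15 and Sox3 went the other way. Fgf15 was at 7.62 and 7.69 CPM with shEV and 1.82 and 1.49 CPM with shWdr5, a change of −2.20 ± 0.20 that left 0.217 of the control level. Sox3 was at 30.5 and 44.3 CPM against 13.3 and 13.4 CPM, a change of −1.48 ± 0.13, so that the spread between its controls was smaller than the gap to the knockdown. Of the other formative genes 5 were higher and 7 lower, among them Tcf15 at −1.51 ± 0.05, Lef1 at 1.34 ± 0.11 and Foxd3 at −0.93 ± 0.06, and of the naive genes 3 were higher and 9 lower. The paralogs split into 5 higher and 6 lower of 12 tested, with Fgf17 at −2.78 ± 0.09 and Pou3f3, a close relative of Pou3f1, at 2.04 ± 0.18. Of 5 ESC markers 4 were lower and 1 higher, from a sum of 5176 to 5477 CPM to one of 4418 to 4465 CPM, and their part was not tested.

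In the TF-AA mutation, of 6 genes tested, Zic5 was higher, Sall2 lower and 4 were not called, in a table where 30.5% of genes were called, 14.4% higher and 16.1% lower. Zic5 was at 7.69 and 8.10 CPM in WT ESC and at 12.9 and 13.6 CPM in the mutant, a change of 0.75 ± 0.15. Sall2 was at 11.0 CPM in both WT ESC libraries and at 7.01 and 7.05 CPM in the mutant, a change of −0.65 ± 0.16. Libraries within each group were close for both genes. Otx2 was at 66.6 and 61.4 CPM against 58.6 and 60.8 CPM (−0.10 ± 0.09), Zic2 at 4.68 and 5.04 CPM against 3.93 and 4.11 CPM (−0.27 ± 0.21), and Sox3 at 5.44 and 5.14 CPM against 4.08 and 4.64 CPM (−0.28 ± 0.21). These 3 genes had both mutant libraries below both controls and none of them was called. Fgf15 overlapped at 21.3 and 24.6 CPM against 22.3 and 23.3 CPM (−0.01 ± 0.12). Fgf5 had 2 to 5 counts and Pou3f1 at most 1 per library, below the minimum for a test. Of the other formative genes 7 of 12 were lower and 5 not called, led by Pim2 (−0.74 ± 0.14), Tcf15 (−0.72 ± 0.11) and Grhl2 (−0.68 ± 0.10), while the naive genes split into 3 higher and 3 lower. Feeder markers were higher for 3 of 3 tested, from 11.0 to 11.7 CPM in sum to 24.0 to 24.7 CPM, with Col3a1 and Dcn at 0 counts. Their part was not tested.

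RYBP phase disruption, against WT.RYBP in the same floxed background, lowered Otx2, the Zic pair and Fgf5. Of 7 genes tested 4 were lower and 3 not called, in a table where 33% of genes were called and 17% were lower. Otx2 was at 25.8 and 25.5 CPM in WT.RYBP and at 9.51 and 8.34 CPM in the mutant, a change of −1.52 ± 0.12. Zic2 was at 47.6 and 48.7 CPM against 17.5 and 16.9 CPM, a change of −1.48 ± 0.09. These left 0.348 and 0.358 of the control level, and the replicates of each group lay close together. Zic5 was at 50.4 and 46.5 CPM against 37.1 and 35.0 CPM, a smaller change of −0.43 ± 0.08 with no overlap.

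Fgf5 was at 5.66 and 5.12 CPM (90 and 82 counts) in WT.RYBP and at 0.543 and 0.807 CPM (8 and 12 counts) in RYBP phase disruption. This change of −2.98 ± 0.34 was lower than that of all but 0.0412% of genes tested. Fgf15 was at 1.95 and 1.19 CPM against 2.11 and 1.55 CPM (0.22 ± 0.38) and Sox3 at 6.36 and 4.12 CPM against 4.75 and 4.50 CPM (−0.18 ± 0.23), both with overlapping groups. Sall2 was at 13.5 and 11.8 CPM against 10.3 and 10.6 CPM (−0.28 ± 0.14, not called). The other formative genes leaned down, 9 of 12 lower and 3 not called with a median of −0.44 beside 0.00 over all genes. Pim2 changed by −1.47 ± 0.07, Foxd3, a forkhead factor gene, by −1.22 ± 0.20, Lef1 by −1.04 ± 0.11 and Grhl2, a gene of an epithelial factor, by −0.95 ± 0.10. The naive genes split into 4 higher and 4 lower, with Dppa3 at 1.01 ± 0.08 and Klf5 at −0.76 ± 0.05. Among the paralogs 4 of 11 tested were lower, Sall3 going from 18.8 ± 2.0 to 4.39 ± 0.32 CPM (SD, n = 2). Feeder markers were plentiful in both groups, at 423 to 430 CPM in sum in WT.RYBP and 343 to 366 CPM in the mutant, with 3 of 6 lower. Markers of primitive streak and mesoderm were lower for 2 of 5 tested, T at −1.38 ± 0.15 and Lhx1 at −2.32 ± 0.70, from a sum of 33.5 to 34.6 CPM to one of 20.0 to 20.7 CPM, with none at 0 counts. Of 5 ESC markers 3 were lower and 1 higher, with sums that overlapped at 1597 to 1664 and 1614 to 1627 CPM. Rybp itself was lower by 0.22 ± 0.04. The part of any of these in the changes above was not tested.

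No formative gene was called when RYBP was raised in J1 cells. With 7 tested, 0 were called by edgeR's quasi-likelihood test and 3 had an unadjusted p under 0.05, and DESeq2 and edgeR's exact test also called 0 with 3 under 0.05. Of all genes 6.02% were called, 3.63% higher and 2.39% lower, while Rybp rose by 1.91 ± 0.05. Otx2 was at 47.3 and 52.7 CPM with vehicle and at 58.1 and 57.1 CPM with DOX, apart but close (0.21 ± 0.08). Without Tet.RYBP.vehicle replicate 2 its change was 0.28 and was called. Zic5 was at 20.2 and 22.1 CPM against 27.0 and 25.2 CPM (0.30 ± 0.11), and Sall2 at 8.61 and 8.34 CPM against 6.62 and 5.28 CPM (−0.51 ± 0.19). Those 3 genes were the ones under 0.05 before adjustment. Zic2 was at 20.0 and 17.4 CPM against 22.0 and 21.4 CPM (0.21 ± 0.12), Fgf15 at 12.0 and 15.0 CPM against 10.8 and 12.0 CPM (−0.25 ± 0.15) and Sox3, also without overlap, at 3.89 ± 0.096 CPM against 2.91 ± 0.87 CPM (SD, n = 2, −0.42 ± 0.27). Fgf5 had 2 to 12 counts in each library, with overlapping groups (0.33 ± 1.08). Of the other formative genes Cldn6 (0.59 ± 0.10) and Dnmt3b (0.57 ± 0.05) were higher and Tcf15 (−0.51 ± 0.11) and Etv4 (−0.26 ± 0.06) lower, and none of the 12 naive genes was called by edgeR's quasi-likelihood test.

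The libraries labelled rTRS DOX held by far the most Fgf5. Of 8 genes tested, 5 were higher, 1 lower and 2 not called, in a table where 43.4% of genes were called, 23% higher and 20.4% lower. The header of 1 of the DOX columns carries another line prefix than rTRS, and it was taken as DOX replicate 2 from the wording of the labels. Since Rybp did not follow the label, each direction here is that of the libraries labelled DOX. Fgf5 was at 0.978 and 0.745 CPM (50 and 40 counts) without DOX and at 26.6 and 27.7 CPM (1381 and 1410 counts) in the libraries labelled DOX, a change of 4.98 ± 0.16. That is 31.5 times the control level, and 99.8% of genes tested had a lower log2 fold change.

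Zic2 was at 11.0 and 9.18 CPM against 38.1 and 35.4 CPM, a change of 1.86 ± 0.11, and Sox3 at 2.90 and 1.36 CPM against 6.34 and 8.17 CPM, a change of 1.77 ± 0.28 that was called throughout and ran from 1.32 without rTRS NTC replicate 2 to 2.41 without rTRS NTC replicate 1. Sall2 was at 13.8 and 12.2 CPM against 27.2 and 29.0 CPM (1.11 ± 0.11). In all 3 the libraries labelled DOX were above both controls. Zic5 was at 26.8 and 27.1 CPM against 36.2 and 32.7 CPM, a change of 0.35 ± 0.09 that was 0.28 and not called without rTRS DOX replicate 1. Fgf15 was lower, at 22.1 and 20.2 CPM against 12.6 and 12.4 CPM (−0.76 ± 0.11). Otx2 was high in both groups, at 103 and 99.9 CPM against 93.9 and 94.6 CPM (−0.10 ± 0.07, not called). Pou3f1 had its largest counts here, 13 and 16 against 31 and 20, with both libraries labelled DOX above the controls and a change of 0.84 ± 0.63 that was not called.

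Around these, 10 of 12 naive genes were lower and 2 not called, with a median of −0.78. Nr0b1 changed by −2.08 ± 0.09, Zfp42 (Rex1) by −1.68 ± 0.06, Fgf4 by −1.28 ± 0.06 and Klf4 by −1.12 ± 0.07. The other formative genes split into 6 higher and 6 lower, Pim2 at 2.56 ± 0.09 and Cldn6, from 40.3 ± 1.4 to 173 ± 11 CPM (SD, n = 2), against Foxd3 at −1.81 ± 0.14 and the ETS factor gene Etv4 at −1.40 ± 0.08. Of 11 paralogs tested 5 were lower and 1 higher, Fgf8, a growth factor of the primitive streak, at 0.270 ± 0.17 CPM (SD, n = 2) against 10.9 ± 2.5 CPM (5.34 ± 0.32). Markers of primitive streak and mesoderm went from a sum of 12.3 to 14.4 CPM to one of 57.5 to 63.0 CPM with 2 of 5 tested higher, the early neural marker Nes from 16.0 ± 2.6 to 46.8 ± 1.7 CPM (SD, n = 2) with Pax6 lower at −2.06 ± 0.67, and ESC markers from 3104 to 3348 CPM to 1985 to 2146 CPM with 4 of 5 lower. Their part in the values of the formative genes was not tested.

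**Figure D3:**
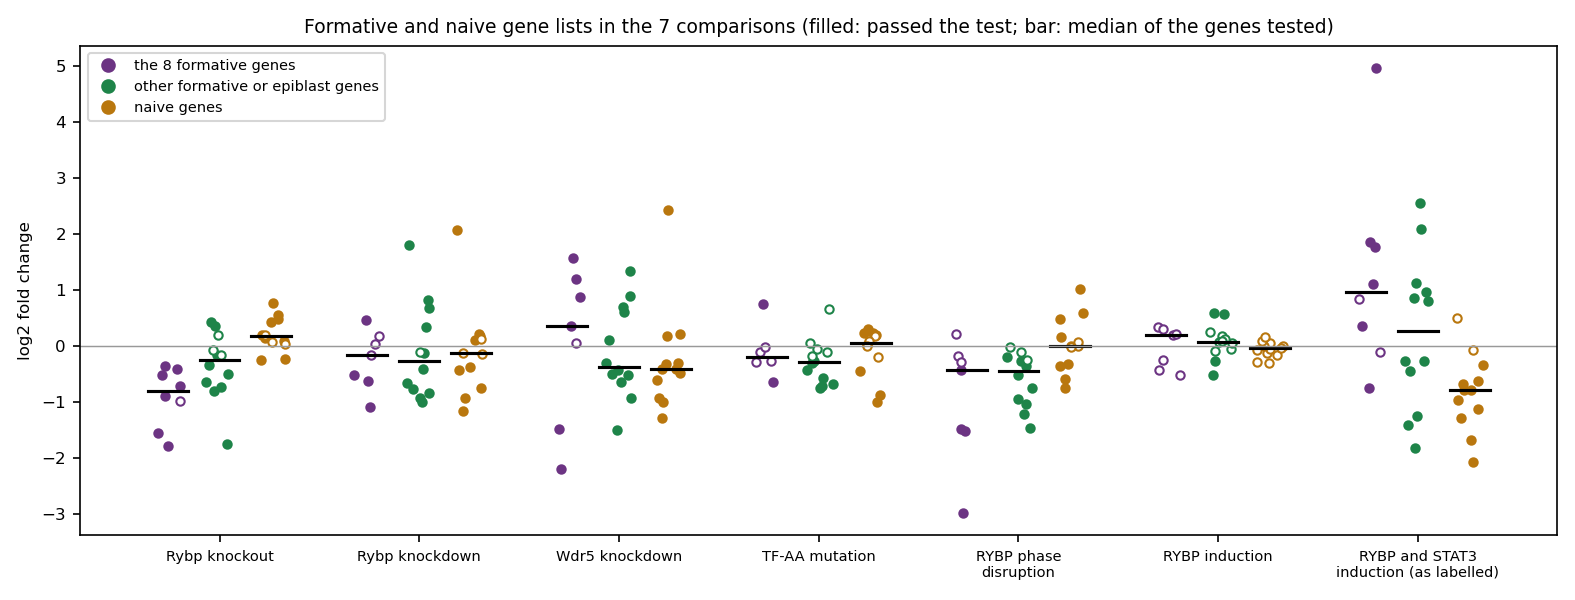
Log2 fold changes (vertical axis) of the 8 formative genes, 12 other formative or epiblast genes and 12 naive genes in each comparison, filled where called, with the median of the genes tested as a bar. In the libraries labelled rTRS DOX Fgf5 stood at 4.98 and the median naive gene at −0.78, and in the Rybp knockout the medians were −0.81, −0.26 and 0.17.

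Markers of trophectoderm were higher in every comparison, for 5 of 5 tested in the Rybp knockout, 4 of 5 in the Rybp knockdown, 3 of 4 in the Wdr5 knockdown, 2 of 2 in the TF-AA mutation, 3 of 4 in RYBP phase disruption, 1 of 2 in RYBP induction and 3 of 4 in the libraries labelled rTRS DOX. Their sum differed most with shWdr5, going from 73.2 to 80.1 CPM to 223 to 232 CPM. In the other comparisons it went from 101.8 to 102.5 CPM to 120.2 to 124 CPM without Rybp, from 77.3 to 84.7 to 141 to 144 CPM with shRybp, from 33.4 to 35.2 to 42.2 to 46.6 CPM in the TF-AA mutation, from 126 to 126.5 to 207 to 214 CPM in RYBP phase disruption, from 22.1 to 25.8 to 37.2 to 38.6 CPM in RYBP induction and from 119.7 to 126 to 166 to 169 CPM in the libraries labelled rTRS DOX. Endoderm markers were higher for 2 of 6 tested without Rybp (a sum of 7.34 to 8.03 CPM in the controls and 12.1 to 13.0 CPM in the perturbed group), for 5 of 6 with shRybp, Sox7 being lower (16.3 to 19.5 and 30.0 to 31.2 CPM), for 3 of 6 with shWdr5, with 1 lower (16.0 to 18.7 and 33.6 to 34.5 CPM), for 2 of 4 in the TF-AA mutation (10.47 to 10.65 and 19.1 to 20.0 CPM) and for 1 of 5 in RYBP phase disruption (14.4 to 17.6 and 20.0 to 21.8 CPM). In the libraries labelled rTRS DOX 1 of 5 was higher and 1 lower (6.94 to 8.65 and 19.7 to 20.8 CPM), and in RYBP induction none of 4 was called by edgeR's quasi-likelihood test, Gata4 and Sox7 having an unadjusted p under 0.05 (6.37 to 6.73 and 3.23 to 4.16 CPM). Ttr was at 0 counts in every table, and Afp as well in those of the Rybp knockout and RYBP induction. ESC markers had 2 of 5 higher and 2 lower in the Rybp knockout (2081 to 2143 and 2136 to 2145 CPM) and 2 higher and 1 lower in the TF-AA mutation (2998 to 3137 and 3175 to 3222 CPM). Of early neural markers, Nes was higher and Pax6 lower in the Rybp knockout (0.25 ± 0.05 and −1.31 ± 0.28), the Rybp knockdown, the Wdr5 knockdown (0.24 ± 0.10 and −1.16 ± 0.21), the TF-AA mutation (0.67 ± 0.12 and −3.16 ± 0.60) and the libraries labelled rTRS DOX. A further early neural marker was higher in the Wdr5 knockdown, where 2 of 3 tested were higher and 1 lower. In RYBP phase disruption Nes was lower (−0.33 ± 0.05) and Pax6 higher (0.59 ± 0.21), and in RYBP induction neither was called by edgeR's quasi-likelihood test or had an unadjusted p under 0.05. Of primitive streak and mesoderm markers, 1 was higher and 1 lower of 6 tested with shRybp (a sum of 16.7 to 19.9 CPM in the controls and 15.2 CPM in both perturbed libraries), 2 were higher and 2 lower of 5 with shWdr5 (16.3 to 19.2 and 18.0 to 21.1 CPM) and 1 of 2 was higher in RYBP induction (11.1 to 15.0 and 15.5 to 16.6 CPM). No marker of that list or of trophectoderm was at 0 counts in any table, and the part of these cell types in the values of the formative genes was not tested.

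Levels between genes were compared per kilobase of exon, as CPM per kb, within a group. In Rybp+/+ ESCs Zic2 (13.7 to 15.2 CPM per kb), Zic5 (11.5 to 11.9) and Otx2 (11.0 to 11.9) stood well above Sox3 (1.68 to 1.70), Fgf5 (1.36 to 1.65), Fgf15 (0.900 to 1.35) and Sall2 (0.894 to 0.913), the ranges of Zic5 and Otx2 overlapping, and those of Sall2 and Fgf15 as well. In Rybp-/- ESCs Otx2 dropped to 3.19 to 3.40 CPM per kb, well under Zic5 (8.49 to 9.06) and Zic2 (7.71 to 7.79). With shEV the highest was Sox3 (15.7 to 22.8 CPM per kb), whose lower library came close to the higher one of Zic2 (13.5 to 15.7), followed by Otx2 at 10.9. In WT ESC, the J1 cells and the rTRS control Otx2 led, at 18.1 to 19.6, 13.9 to 15.5 and 29.4 to 30.2 CPM per kb, with Fgf15 second at 11.8 to 13.6, 6.64 to 8.31 and 11.2 to 12.2. Pou3f1 had the lowest mean in all 14 groups of the tables, with at most 0.155 CPM per kb.

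As a description over the 28 library columns, each gene's log2(CPM + 1) was set against the mean of its own table, with the shEV libraries entering both knockdown tables. Of 13126 genes tested in every table, Otx2 was most alike to Mllt10 (Pearson r = 0.94), Casp2 (0.92), Zfp652 (0.92), Baz2b (0.90) and Sykb (0.89). Among the formative genes Zic2 came nearest, at 0.58 and rank 768, followed by Zic5 at 0.44 and Sall2 at 0.43, while Sox3 (−0.24) and Fgf15 (−0.31) ran against it. Zic2 and Zic5 had r = 0.60 with each other, Zic2 and Sall2 also 0.60, and Fgf15 and Sall2 −0.64. The columns of a table share their controls and scaling, and the pattern rests on 7 contrasts.

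RING1B peaks lay at or near the starts of these genes. A RING1B peak lay within 2.5 kb of the start of 8 of 8 genes with shEV, against 43.6% of 22367 protein-coding genes, of 7 with shStat3 (39.4%), of 8 in Tet.Rybp.Stat3.DOX- (52.4%) and of 8 in Tet.Rybp.Stat3.DOX+ (39.8%), the ChIP lines being R1 cells. Each list is a single set of peaks with no spread between replicates, so the lists are described and not compared by a test, and heights are given as percentiles of fold enrichment within a list. The shEV and shStat3 lists rest on a single RING1B library each. With shEV the promoter peak stood at the 99.4 percentile at Pou3f1, 98.9 at Sox3, 95.7 at Fgf5, 95.2 at Zic2 and Zic5, 91.7 at Otx2, 79.0 at Fgf15 and 67.3 at Sall2. Sall2 was the lowest of the 8, and the value of Zic2 and Zic5 is that of a shared peak. The percentiles are over all peaks of the list, so they do not compare these starts with those of other genes.

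A single RING1B peak of 29733 bp spanned Zic2 and the start of Zic5 with shEV. At Otx2 peaks covered 13277 bp with shEV and 8067 bp with shStat3, and the promoter peak stood at the 91.7 and 73.9 percentile. With shStat3, the promoter peak of Sox3 was at the 94.6, of Zic2 at the 88.0, of Fgf5 at the 87.3 and of Fgf15 at the 61.6 percentile, and Sall2 had none within 2.5 kb. In the Tet.Rybp.Stat3 lists Otx2 was at the 89.5 percentile in DOX- and 84.9 in DOX+, with 14645 and 12402 bp covered. In the 4 RING1B lists each of the 7 genes other than Sall2 had a peak over its start, while the Sall2 peak reached the start in Tet.Rybp.Stat3.DOX- only.

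**Figure D4:**
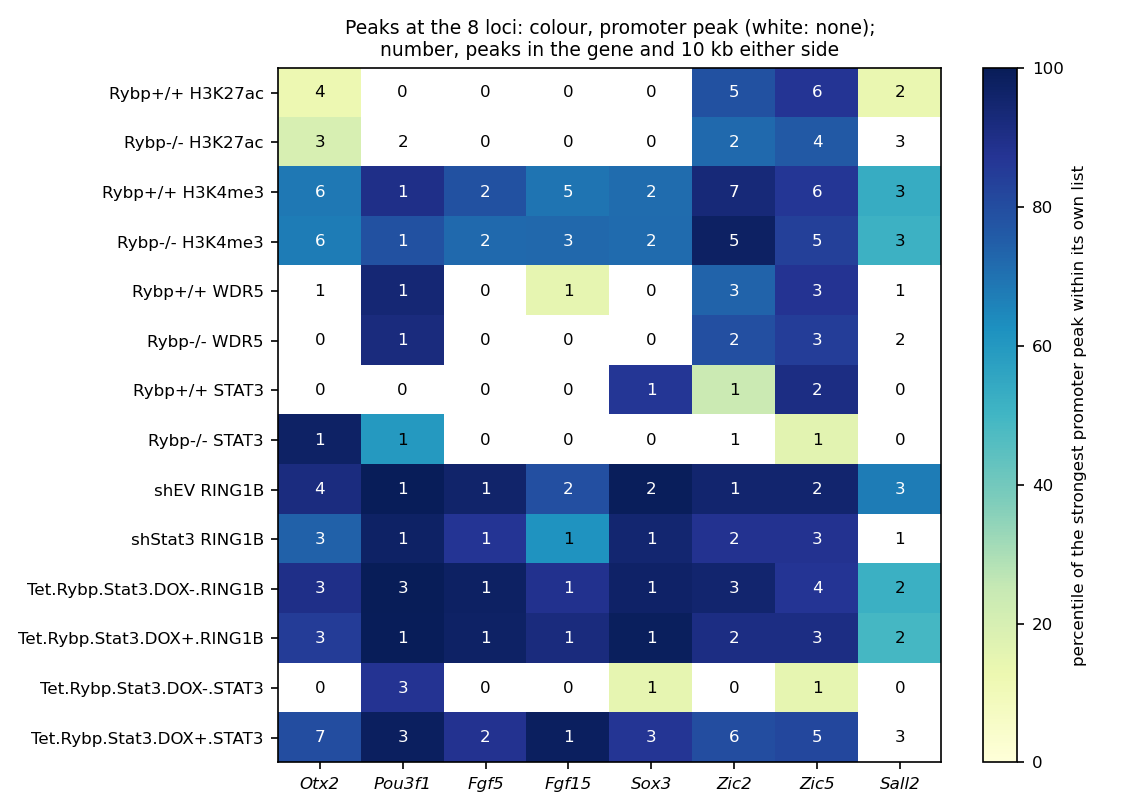
Percentile within its own list of the strongest peak within 2.5 kb of each start (colour, 0 to 100, white where there was none) for 8 genes and 14 peak lists. Numbers give the peaks in the gene and 10 kb on each side. RING1B at Pou3f1 and Sox3 reached the 99.4 and 98.9 percentile with shEV, and Fgf5, Fgf15 and Sox3 had no H3K27ac peak.

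H3K4me3 peaks lay within 2.5 kb of the start of 8 of 8 genes in Rybp+/+ and in Rybp-/- ESCs, against 65.8% of protein-coding genes in each. Zic2 had the highest, at the 93.2 percentile in Rybp+/+ and 97.4 in Rybp-/-, and Otx2 was at 68.7 and 67.2. H3K27ac peaks lay within 2.5 kb of the start of Otx2, Zic2, Zic5 and Sall2 in Rybp+/+ (4 of 8, against 49.5% of genes) and of the first 3 in Rybp-/- (52.4%). Those at Otx2 and Sall2 were low in their lists and did not reach the start. They were at the 12.2 percentile for Otx2 and 13.4 for Sall2 in Rybp+/+, and at 19.7 for Otx2 in Rybp-/-. For Fgf5, Fgf15 and Sox3 no H3K27ac peak in the gene or 10 kb around was listed in either genotype. Counting the whole width of each peak that touched the gene or 10 kb around it, H3K27ac peaks covered 4827 bp at Otx2 in Rybp+/+ and 3927 bp in Rybp-/-. The windows of Zic2 and Zic5 share peaks, so only the peaks within 2.5 kb of each start are given, 1653 and 1172 bp at Zic2. At Zic5 they covered 3344 bp in 2 peaks in Rybp+/+ and 1116 bp in 1 peak in Rybp-/-, the latter lying inside the gene and not reaching its start. Pou3f1 went the other way, with no H3K27ac peak in Rybp+/+ and 2 peaks covering 589 bp in Rybp-/-, neither within 2.5 kb of its start. The Zic5 promoter peak was at the 87.2 percentile in Rybp+/+ and the 76.2 percentile in Rybp-/-. The strongest H3K27ac peak listed for Sall2, at the 97.1 and 96.6 percentile, lay 23.8 kb past its start at the annotated start of the neighbour Mettl3. Apart from it, Sall2 had 1 peak of 547 bp in Rybp+/+ and peaks of 450 and 238 bp in Rybp-/-. The peak of 238 bp lay upstream, just outside the 2.5 kb around its start.

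The main H3K27ac peak of Otx2 lay past its 3′ end. It covered chr14:49272668-49276071 in Rybp+/+, with its middle 12950 bp from the start, at the 86.0 percentile, and chr14:49272897-49275973 in Rybp-/-, at the 65.8 percentile. The printed Otx2 downstream stretch is the WDR5 peak inside it, called in Rybp+/+ only and low in its list at the 10.9 percentile. H3K4me3 peaks overlapped that stretch in both genotypes, as did small RING1B peaks in shEV (9.26 percentile), Tet.Rybp.Stat3.DOX- (24.1) and Tet.Rybp.Stat3.DOX+ (5.75), and a STAT3 peak in Tet.Rybp.Stat3.DOX+ (81.4). No WDR5 peak was listed at the Otx2 start in either genotype. WDR5 peaks lay within 2.5 kb of the starts of Pou3f1, Fgf15, Zic2 and Zic5 in Rybp+/+ (4 of 8, against 44.9% of genes) and of Pou3f1, Zic2 and Zic5 in Rybp-/- (3 of 8, 47.2%), the Fgf15 peak being at the 14.6 percentile and that of Pou3f1 at the 94.1.

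**Figure D5:**
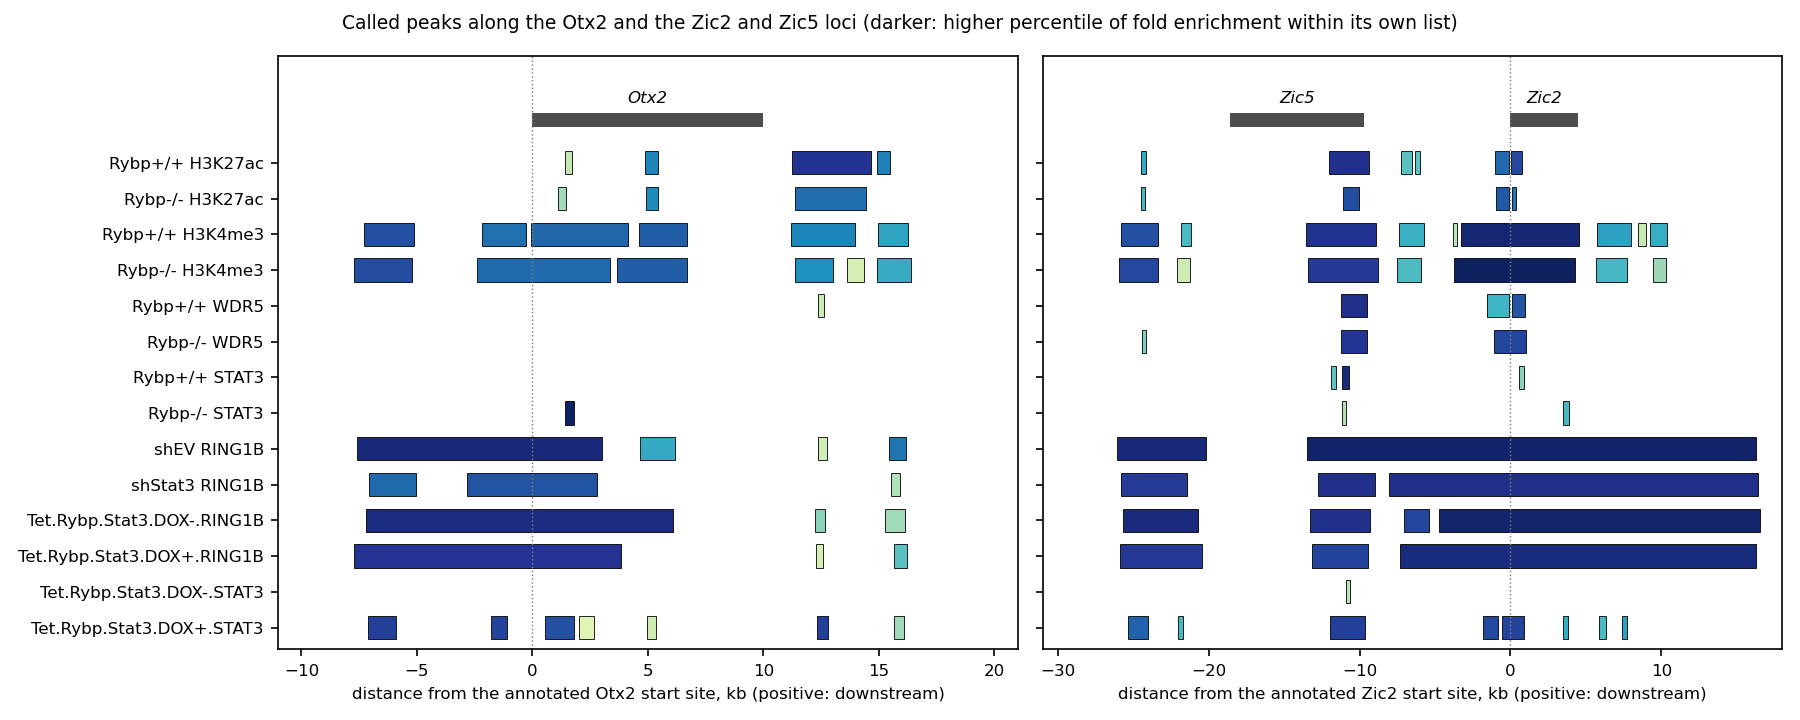
Called peaks in the 14 lists along Otx2 (left) and along Zic2 and Zic5 (right), by distance from the annotated start of Otx2 or Zic2 in kb, darker for a higher percentile of fold enrichment within the list. Genes are the dark bars on top. The Rybp+/+ H3K27ac peak of Otx2 12950 bp past the start lies beyond the gene, and the RING1B peak of 29733 bp with shEV spans Zic2.

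STAT3 peaks were listed at more of these genes in the DOX+ than in the DOX- list, and the lists differed widely in length. In Tet.Rybp.Stat3.DOX- a STAT3 peak lay within 2.5 kb of the start of Pou3f1, Sox3 and Zic5 (3 of 8, against 8.31% of protein-coding genes), and in Tet.Rybp.Stat3.DOX+ at 7 of 8, all but Sall2, in a list of 30663 peaks that marked 54.9% of genes against 2816 peaks in DOX-. In DOX+ the promoter peak was at the 98.4 percentile at Fgf15 and Pou3f1, 88.3 at Fgf5, 86.9 at Sox3, 81.5 at Zic5, 80.0 at Zic2 and 79.9 at Otx2. These cells carry the same genotype label as the rTRS line, but the labels name R1 as their cell line and do not tie them to the RNA libraries. STAT3 lists of R7.15 cells were short, with 2363 peaks in Rybp+/+ and 1917 in Rybp-/-, and each rests on a single library. Sox3, Zic2 and Zic5 had a promoter peak in Rybp+/+ (3 of 8, 6.94% of genes), and Otx2, Pou3f1 and Zic5 in Rybp-/- (3 of 8, 5.9%). The Otx2 peak in Rybp-/-, 1.60 kb past the start at chr14:49285524-49285922 within an intron, was at the 97.1 percentile, and none was listed at Otx2 in Rybp+/+.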

How the data were processed

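RNA-seq libraries were counted per gene by the authors, and the deposited tables hold whole-number counts. Per the labels and the study's methods, reads were trimmed with Trim Galore, aligned to mm9 with STAR and counted with htseq-count. Rows of reads outside genes, 13.7 to 26.5% per library in 6 of the 7 tables, were left out here. No such share was computed for the RYBP induction table, whose rows used here are all genes. ChIP-seq peak lists were deposited as peak positions with fold enrichment and −log10 q in MACS format, which the authors called against input on merged replicates for H3K27ac, H3K4me3 and WDR5. For the STAT3 and RING1B lists this is not given in the sources used here. Those of shEV, shStat3, Rybp+/+ and Rybp-/- cells have a single ChIP library each in the labels, so no replicates were there to merge. Each count table was fitted alone with edgeR 4.0.16 (TMM, filterByExpr, quasi-likelihood test, Benjamini-Hochberg adjustment, R 4.3.3), with DESeq2 1.42.0, edgeR's exact test and RLE scaling, no filter, the replicate block, a fold limit and leaving out each library as alternatives. The scripts were tested on simulated data. In the tables of RYBP phase disruption and RYBP induction, the columns named WT and NTC were taken as WT.RYBP and Tet.RYBP.vehicle, the control group that the labels tie to each table, and in the rTRS table a DOX column with another line prefix as DOX replicate 2. In each group the replicates differed by more than sampling noise. Peaks were assigned to a gene with 10 kb on each side, and to its start within 2.5 kb, on the GENCODE annotation of NCBIM37. Named genes of the formative, naive and paralog lists were those called with the largest change among genes with a mean CPM of 1 or more, at most 4. The genes and lists were chosen with earlier results of these data known. No p adjusted over the list alone is given for that reason. All 28 library columns were used. The summed level of the early neural markers is not reported here.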

Additional observations from a re-analysis of the deposited data

Results flagged for a closer look

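Sall2 moved in opposite directions with the Rybp deletion in R7.15 and the Rybp knockdown in R1. Both Rybp-/- libraries of R7.15 were below both Rybp+/+ libraries (a log2 fold change of −0.36 ± 0.14, edgeR's quasi-likelihood fit), and both shRybp libraries of R1 were above both shEV libraries (0.47 ± 0.09). The difference between the lines was not tested. The Rybp-/- value was not called by DESeq2 or when any library was left out.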

How the results depend on the processing

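Of 250 refits of single genes under another tool, scaling, filter or the replicate block, 240 kept direction and side of the threshold, as did 175 of 199 that left out a library. With DESeq2 the Rybp knockout had 4 of the 8 genes called instead of 7, and with a log2 fold change above 1 as well it had 2. The same limit left 1 of 4 in the Rybp knockdown and 0 of 2 in the TF-AA mutation. Leaving out single libraries gave 0 to 1 called in RYBP induction. DESeq2 called 2903 genes instead of 4412 in the TF-AA mutation and 2659 instead of 4814 in RYBP phase disruption. The log2 fold change turned sign for Fgf5 in the Rybp knockdown (−0.0061 with DESeq2, −0.62 to 0.97 over libraries left out), for Sox3 there (−0.069 to 0.47) and for Zic5 in the Wdr5 knockdown (−0.022 to 0.15). Over libraries left out it also turned for Fgf15 in the TF-AA mutation (−0.11 to 0.088) and RYBP phase disruption (−0.10 to 0.61), Sox3 in the latter (−0.46 to 0.16) and Fgf5 in RYBP induction (−0.41 to 1.91). The causes were not tested. With the replicate block, Sox3 became called in the Rybp knockdown (0.20), 5 genes instead of 4, and the other counts stayed at 7, 6, 2, 4, 0 and 6 of the formative genes. Same-numbered libraries had correlations of their deviations from −0.00 to 0.20 (highest in rTRS), and the labels tie the numbers to no shared culture, so whether they pair the libraries is not settled. Of all genes the block called 5525 instead of 4412 in the TF-AA mutation, 1211 instead of 899 in RYBP induction and 8559 instead of 7070 in rTRS. Peaks were found at 85 of 112 pairs of a locus and a list, and at 79 to 93 with other windows or limits. Few counts limited Pou3f1 throughout and Fgf5 in the R1 and J1 tables.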
